A study of Mus musculus with 8 samples.

Results

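The perilipins and the lipolysis enzymes are 10 genes of lipid storage and release: *Plin1*, *Plin2*, *Plin3*, *Plin4*, *Plin5*, *Lipe*, *Pnpla2*, *Pnpla3*, *Mgll* and *Abhd5*. They were chosen by name, and every probe that the array's design gives to one of them was taken. This gave 20 of 56605 probes, each spotted once, for 10 of 37325 gene names. Of these 20 probes, 18 passed the filter on dim signals, as did 33819 of all probes. Gene expression was measured on Agilent one-color arrays of 4 Co mice and 4 Pg mice. All were 12-week-old C57BL/6J mice, and the tissue is labelled brown adipose tissue (BAT). The study's methods give the mice as male and the BAT as interscapular. Co mice had an intravenous injection of 100 μL of saline and Pg mice the same volume with sonicated *P. gingivalis*, a bacterium of periodontal disease, and RNA was taken 18 h later. The labels print the dose as 108 CFU (colony-forming units), and the study's methods give a power of 10. Each array held the RNA of 1 mouse, and the RNA came from whole tissue, in which fewer cells of a type and less RNA per cell cannot be told apart.

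Triacylglycerol is stored in lipid droplets, and perilipins coat their surface. Adrenergic signals raise cAMP, protein kinase A phosphorylates perilipin 1 and hormone-sensitive lipase, and the co-activator CGI-58 (*Abhd5*) is set free to activate adipose triglyceride lipase (*Pnpla2*). Adipose triglyceride lipase, hormone-sensitive lipase (*Lipe*) and monoacylglycerol lipase (*Mgll*) then remove the fatty acids in turn, and in brown fat these fuel heat production by UCP1.

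Of the 18 probes tested, 1 probe of *Pnpla3* was a DEG, with a lower signal in Pg mice than in Co mice. A DEG has a q under 0.1, the p-value of limma after Benjamini-Hochberg adjustment over all probes tested, and a fold change above 1.5. Over all probes tested, 1.61% were DEGs, and 1 probe is too few to set the members apart from these. The same *Pnpla3* probe was the only member probe with a q under 0.1 under this processing, against 7.82% of all probes. An unadjusted p under 0.05 was found for 4 of the 18 probes, and for 22.8% of all probes. None of the probes of *Plin1*, *Plin2*, *Plin3*, *Plin4*, *Plin5*, *Lipe*, *Pnpla2*, *Mgll* and *Abhd5* passed the test. The fitted change was below 0 for 14 of the 18 probes and for 57.7% of all probes, and its median was -0.10 for the members and -0.04 for all probes on the log2 scale. Arrays of Co and Pg mice did not overlap for 2 of the 18 probes (15.8% of all probes), 1 of *Pnpla3* and 1 of *Abhd5*.

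**Figure D1:**
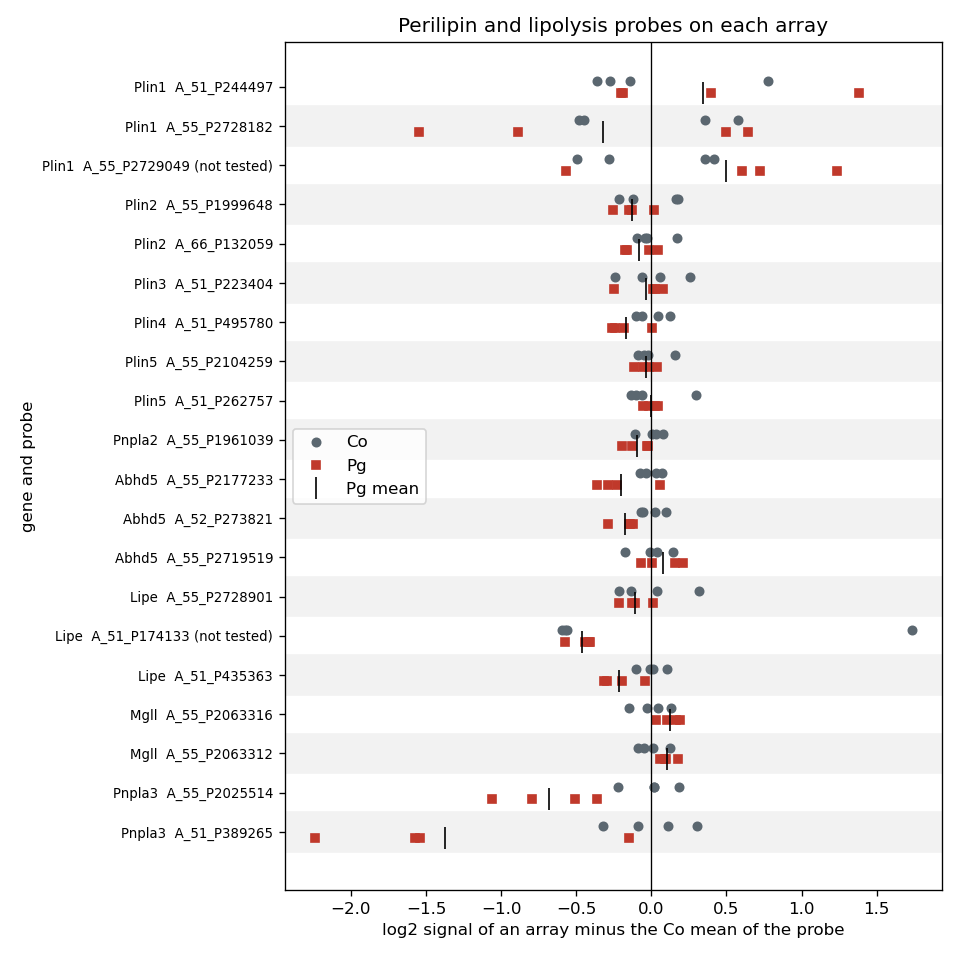
Each row is 1 of the 20 probes of the 10 genes, and the x axis gives the log2 signal of each array minus the Co mean of that probe. Grey circles are the 4 Co arrays, red squares the 4 Pg arrays and black bars the Pg mean. The groups lie apart for the upper probe of *Pnpla3* and for the middle probe of *Abhd5* and overlap for the others.

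The tissue label was checked first, because perilipins differ between fat and muscle. The probe of *Ucp1*, the heat-producing protein of brown adipocytes, was well above background on 0 of 8 arrays, with log2 signals between 2.09 and 2.26. Of 15 brown adipocyte markers, 10 were well above background on all 8 arrays, and *Ucp1*, *Elovl3*, *Slc27a2* and *Bmp8b* on none. *Cidea*, a droplet protein of brown fat, was above background on every array, at 13.44 ± 0.09 in Co and 13.34 ± 0.17 in Pg mice (log2 signal, SD, n = 4). Of 15 general adipocyte markers, 13 were above background on all 8 arrays, *Fabp4* at 16.28 ± 0.10 and 16.35 ± 0.17 in Co and Pg mice. All 20 skeletal muscle markers were above background on all 8 arrays. *Acta1*, the actin of muscle fibres, gave log2 signals of 18.54 ± 0.03 and 18.51 ± 0.07, and *Ckm*, muscle creatine kinase, 16.98 ± 0.03 and 16.83 ± 0.08 in Co and Pg mice. The arrays therefore carry strong muscle signal and no measurable *Ucp1*, and the levels of the 10 genes are given here for the tissue on these arrays.

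The median log2 signal of the skeletal muscle list lay between 16.98 and 17.17 in Co mice and between 17.07 and 17.12 in Pg mice. Some single muscle markers varied far more than this median. *Myh4* read 11.38 on Pg replicate 1, 13.38 on Co replicate 3 and between 14.38 and 17.07 on the other arrays. The median of the adipocyte list lay between 9.16 and 10.40 in Co mice and between 8.98 and 10.58 in Pg mice. On every array it was the signal of *Retn*, so its test is that of 1 gene. The brown adipocyte list lay between 7.55 and 7.96 in Co mice and between 7.43 and 7.87 in Pg mice, and the macrophage list between 8.68 and 9.35 and between 8.40 and 9.86. No difference between the groups in these list medians passed the two-sided exact permutation test over arrays, with p = 0.914 for muscle, 0.857 for adipocyte, 0.743 for brown adipocyte and 0.60 for macrophage markers, where 0.0286 is the smallest p that 70 splits allow. Quantile normalization sets the highest signals by rank. *Tnnt3* read 18.84 on every Pg array and on every Co array except replicate 1 (18.81). This limits what the tests of the muscle list can show of a difference in muscle content. Gene by gene, the fitted change was below 0 for 16 of the 20 muscle markers, compared to 52.9% of all genes. The unadjusted p was under 0.05 for 5 of the 20, compared to 20.3% of all genes. These 5 were *Atp2a1*, *Mb*, *Ckm*, *Ryr1* and *Myoz1*, all lower in Pg mice and, apart from *Ckm*, named here after their values were seen. *Atp2a1*, the calcium pump of fast muscle fibres, was the only one with a q under 0.1 in limma, with a log2 difference of -0.44 and no overlap of the groups (q = 0.0411). Its difference was below 0 in all 18 alternatives run for it, and q was 0.107 without Co replicate 3, 0.128 without normalization between arrays, 0.122 with the replicate block and 0.180 without Co replicate 2 and Pg replicate 1. Of the other lists, the fitted change was below 0 for 4 of 15 adipocyte, 6 of 11 brown adipocyte and 2 of 10 macrophage markers tested, and none had a q under 0.1. An unadjusted p under 0.05 was found for *Pparg* (0.23) and *Thrsp* (-0.33) among adipocyte markers, for *Dio2* (0.59) and *Cox7a1* (0.16) among brown adipocyte markers and for 0 macrophage markers, with the log2 difference in parentheses and all 4 named after their values were seen. The summed signal of the list gave an exact permutation p of 0.0571 for brown adipocyte markers, whose group ranges overlapped with the higher mean in Pg mice, 0.20 for muscle, 0.343 for macrophage and 0.657 for adipocyte markers. The brown adipocyte sum was mostly the signal of *Cox8b* (log2 mean 17.94 in Co and 18.05 in Pg mice) and *Cox7a1* (17.75 and 17.91). The next brightest marker of that list was *Ppara* (13.55 and 13.38). The adipocyte median is related to the members below and was used as a covariate. Apart from this, the part of these markers in the results on the members was not tested. None of 5 hepatocyte markers was above background on all 8 arrays, and *Apoa1*, *Fgb* and *Ttr* were above it on none. The arrays of the 2 groups lie in different rows of 1 slide, so row and group cannot be told apart.

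Probes of 3 members that lie within coding sequence, as judged from their place along the transcript and an open reading frame, are shown because they are what bound the RNA in results that follow. Each is 60 bases long and is written 5′ to 3′ in the sense of the transcript, with its position in the mouse build mm9 as the scanner files give it. The *Abhd5* probe lies at chr9:122277200-122277259 on the plus strand, the *Lipe* probe at chr7:26165828-26165887 on the minus strand and the *Mgll* probe at chr6:88714636-88714695 on the plus strand.
Abhd5: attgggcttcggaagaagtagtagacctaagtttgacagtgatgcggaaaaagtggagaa
Lipe: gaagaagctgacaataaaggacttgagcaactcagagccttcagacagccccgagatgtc
Mgll: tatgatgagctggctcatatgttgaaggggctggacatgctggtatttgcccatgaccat

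Perilipin 1 coats the large droplets of adipocytes and holds CGI-58 until it is phosphorylated. The main probe of *Plin1* (A_51_P244497), the one with the highest mean signal, read 6.53, 7.67, 6.75 and 6.61 on the Co arrays and 8.27, 6.70, 6.69 and 7.29 on the Pg arrays (log2 signal, replicates 1 to 4). Pg replicate 1 and Co replicate 2 were the highest, and the groups overlapped. The fitted difference between Pg and Co was 0.35 on the log2 scale, with an SE of 0.40 and a 95% interval from -0.58 to 1.27 (q = 0.640). Without Pg replicate 1 the difference was 0.00, and without Co replicate 2 it was 0.61, and neither passed the test. The other probes of *Plin1* were dim. A_55_P2728182 was above background on 4 of 8 arrays and had a fitted difference of -0.32 with an SE of 0.53. A_55_P2729049 was above background on 2 of 8 arrays and was not tested. Both were designed on cDNA clones and lie upstream of the main probe on the genome.

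The spread of *Plin1* among mice followed some of the adipocyte markers and not others. The median log2 signal of the 15 adipocyte markers, which do not include a perilipin, read 9.20, 10.40, 9.56 and 9.16 on the Co arrays and 10.58, 8.98, 9.32 and 9.78 on the Pg arrays. On each of the 8 arrays this median was the signal of 1 gene, *Retn*, so the relations given next are relations to that gene. Over the 8 arrays, Pearson's r with the main *Plin1* probe was 0.951 (exact permutation p = 0.000794, 0.00794 after adjustment over the 10 members) and Spearman's rho was 0.833 (exact permutation p = 0.0154, adjusted 0.154). Without Pg replicate 1 and Co replicate 2, the arrays farthest from the median of the markers, r was 0.790. With each group's mean taken out first, r over the 8 arrays was 0.975. For the main probes of the other 9 genes r lay between -0.15 and 0.43 (between -0.14 and 0.64 with the group means taken out), and none had an adjusted p under 0.05 for the first of these. This relation was looked for after the values of *Plin1* had been seen. *Adipoq* (adiponectin) was 11.31 on Co replicate 2 and 11.09 on Pg replicate 1, and between 9.61 and 10.23 on the other 6 arrays. *Cidec*, a protein that fuses droplets of white adipocytes, was 12.24 and 11.81 on these arrays and between 9.91 and 10.56 on the others. Some other markers of the list did not follow this. *Fabp4* was highest on Pg replicate 4 (16.57), with 16.27 on Co replicate 2 and 16.39 on Pg replicate 1. *Thrsp* was lowest on Pg replicate 1 (10.78), and *Adig* read 11.59 on Co replicate 2, the lowest of the Co arrays. The 3 genes whose signal was most like that of *Plin1* over the 8 arrays, among 22723 probes compared, were *Arxes2* (r = 0.992), *Acp5* (r = 0.971) and *Cfd* (r = 0.968), the last being an adipocyte marker of the list.

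**Figure D2:**
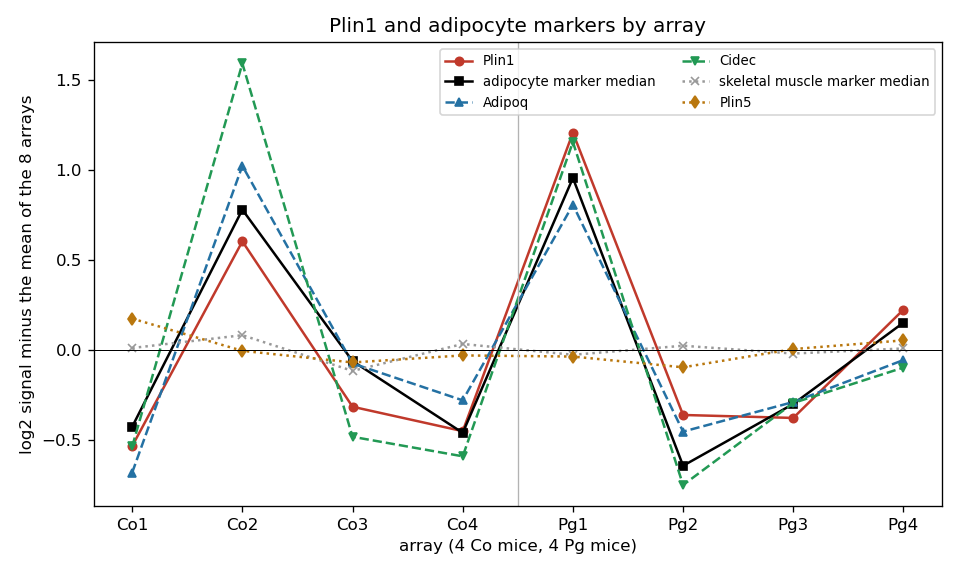
The x axis gives the 8 arrays and the y axis the log2 signal minus the mean of the 8 arrays, for the main probes of *Plin1* and *Plin5*, for *Adipoq* and *Cidec*, and for the medians of the adipocyte and skeletal muscle markers. *Plin1* and the adipocyte series shown are highest on Co replicate 2 and Pg replicate 1, while *Plin5* and the muscle median stay within 0.2 of their means. The adipocyte median is the signal of *Retn* on each array.

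Perilipin 2 and perilipin 3 coat small droplets in many cell types. The main probe of *Plin2* (A_55_P1999648) read 12.17, 11.79, 12.19 and 11.89 on the Co arrays and 12.03, 11.88, 11.75 and 11.86 on the Pg arrays (log2 signal). All 4 Pg values lay within or just under the Co range, and the fitted difference was -0.13 with an SE of 0.11 (95% interval from -0.38 to 0.12, q = 0.519). The other *Plin2* probe, A_66_P132059, had a difference of -0.08 with an SE of 0.08. *Plin3* (A_51_P223404) averaged 13.28 ± 0.21 in Co and 13.24 ± 0.15 in Pg mice (log2 signal, SD, n = 4), a difference of -0.03 (95% interval from -0.31 to 0.24). Its sign turned when Co replicate 1 (0.05) or Pg replicate 2 (0.04) was left out. The genes most like the main *Plin2* probe over the 8 arrays were *Fam172a* (r = 0.972), *Fez1* (r = 0.962) and *Neil2* (r = 0.952).

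Perilipin 4 is found in fat and striated muscle, and perilipin 5 in tissues that burn fat, where it ties droplets to mitochondria. *Plin4* (A_51_P495780) read 16.18, 16.09, 15.95 and 15.99 on the Co arrays and 15.87, 15.81, 16.06 and 15.79 on the Pg arrays (log2 signal). Pg replicates 1, 2 and 4 were under every Co value, and replicate 3 lay among them. The fitted difference was -0.17 with an SE of 0.08 (95% interval from -0.36 to 0.02, q = 0.268). The main probe of *Plin5* (A_55_P2104259) averaged 15.65 ± 0.11 in Co and 15.62 ± 0.06 in Pg mice, a difference of -0.04 (95% interval from -0.20 to 0.13), and the other probe (A_51_P262757) 15.27 ± 0.20 and 15.26 ± 0.04, with an interval from -0.23 to 0.23.

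Adipose triglyceride lipase, the product of *Pnpla2*, starts the breakdown of triacylglycerol. Its probe (A_55_P1961039) read 16.27, 16.09, 16.20 and 16.23 on the Co arrays and 16.18, 16.07, 16.00 and 16.17 on the Pg arrays (log2 signal), and the groups overlapped. The fitted difference was -0.09 with an SE of 0.07 (q = 0.443), and its 95% interval ran from -0.25 to 0.06. A change by 1.5-fold, in either direction, thus lies outside the interval of this probe on these arrays.

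*Abhd5*, the co-activator of adipose triglyceride lipase, had 3 probes tested, and they did not point the same way. Its main probe (A_55_P2177233) read 10.70, 10.63, 10.74 and 10.59 on the Co arrays and 10.73, 10.31, 10.44 and 10.38 on the Pg arrays. Pg replicate 1 lay among the Co values and the other Pg arrays under them, for a fitted log2 difference of -0.20 with an SE of 0.10 (q = 0.255). The probe within the coding sequence (A_52_P273821), shown above, read 9.33, 9.32, 9.41 and 9.48 on the Co arrays and 9.27, 9.10, 9.24 and 9.24 on the Pg arrays. All 4 Pg values were under all 4 Co values. The fitted difference was -0.18 with an SE of 0.07 (unadjusted p = 0.0281, q = 0.167 in limma). Of 17 alternatives, 1 gave this probe a q under 0.1 (0.0997, where normexp background correction replaced the processed signal). The highest q among them was 0.520. The third probe (A_55_P2719519), at a place upstream of both, had a difference of 0.08 with an SE of 0.09, and its groups overlapped.

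Hormone-sensitive lipase, the product of *Lipe*, acts mainly on diacylglycerol. The main probe (A_55_P2728901), designed on a cDNA clone, gave a log2 signal of 9.57 ± 0.24 in Co and 9.46 ± 0.09 in Pg mice (SD, n = 4), a difference of -0.11 with an SE of 0.12 (q = 0.617). The probe in the coding sequence (A_51_P435363) read 8.52, 8.73, 8.64 and 8.61 on the Co arrays and 8.58, 8.33, 8.43 and 8.31 on the Pg arrays. Pg replicate 1 lay above the lowest Co array and the other 3 Pg arrays lay under all of them. The difference of -0.21 had an SE of 0.08 (unadjusted p = 0.0284, q = 0.168 in limma). The remaining probe (A_51_P174133) was above background on 1 array, Co replicate 3, and was not tested.

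Monoacylglycerol lipase, the product of *Mgll*, frees the last fatty acid. Its main probe (A_55_P2063316) read 14.26, 14.19, 14.35 and 14.07 on the Co arrays and 14.41, 14.32, 14.25 and 14.38 on the Pg arrays (log2 signal). Pg replicates 1 and 4 were above all Co arrays and the other 2 among them, for a fitted difference of 0.12 with an SE of 0.07 (95% interval from -0.05 to 0.29, q = 0.366). The probe in the coding sequence (A_55_P2063312) had a mean of 11.16 ± 0.09 in Co and 11.27 ± 0.05 in Pg mice, a difference of 0.11 with an SE of 0.06 (q = 0.359). Both intervals include 0 and exclude a change by 1.5-fold.

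**Figure D3:**
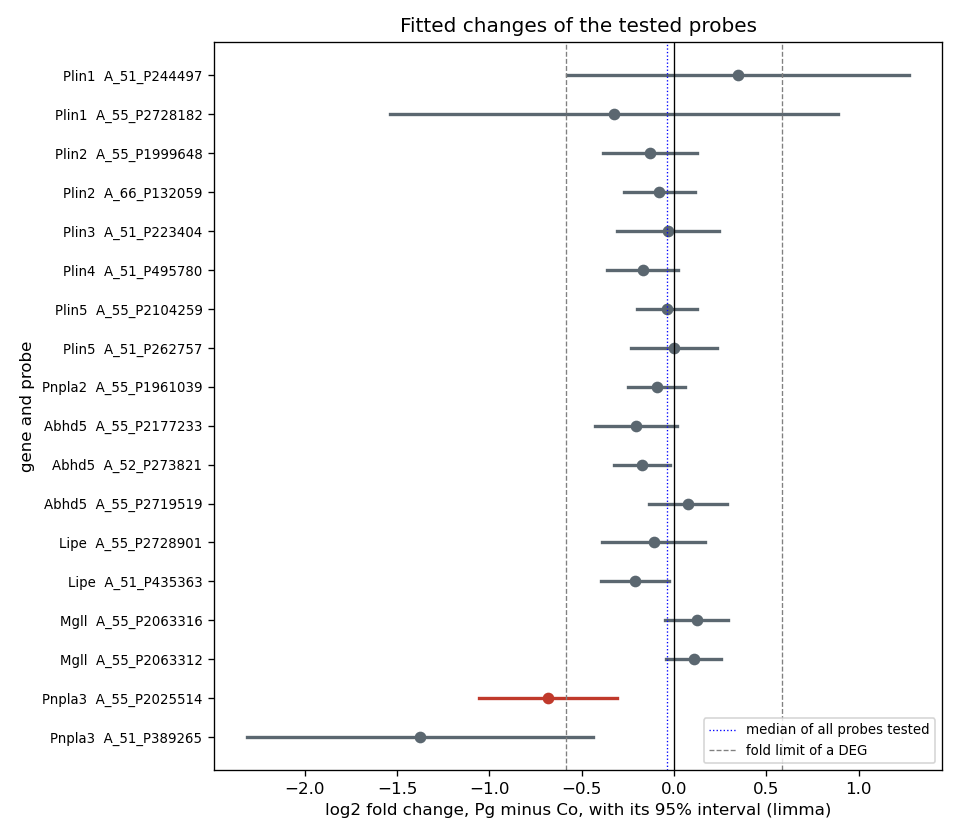
Each row is 1 of the 18 tested probes, with the fitted log2 fold change of Pg against Co (dot) and its 95% interval from limma (line). The blue dotted line is the median of all probes tested (-0.04), the dashed lines are the 1.5-fold limits of a DEG, and red marks the 1 DEG, *Pnpla3*. The intervals of the *Plin1* probes and of the second *Pnpla3* probe are the widest.

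*Pnpla3* encodes adiponutrin, a relative of adipose triglyceride lipase on lipid droplets whose expression in liver and fat is known to follow feeding and insulin. Its main probe (A_55_P2025514) read 6.20, 6.45, 6.61 and 6.44 on the Co arrays and 5.91, 5.36, 6.07 and 5.63 on the Pg arrays (log2 signal). All 4 Pg values were under all 4 Co values, and this was also so for the processed intensity before normalization, where the lowest Co array read 73.9 and the highest Pg array 67.9. The fitted difference was -0.68 with an SE of 0.16, or 1.61-fold lower in Pg mice (95% interval of the log2 difference from -1.06 to -0.31, q = 0.0714 in limma). The second probe (A_51_P389265), further downstream in the transcript, read 6.42, 6.19, 6.62 and 6.81 on the Co arrays and 4.27, 4.93, 6.36 and 4.97 on the Pg arrays. Pg replicate 3 lay among the Co values and the other 3 Pg arrays lay far under them, and Pg replicate 1 was not well above background. The difference of -1.38 had an SE of 0.40 (95% interval from -2.31 to -0.44) and missed the limit (q = 0.108 in limma).

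The direction of *Pnpla3* held and its call did not. The log2 fold change of the main probe was below 0 in all 17 alternatives run for it, and q was under 0.1 in 5 of them. The mean of both *Pnpla3* probes, fitted among such means of all genes, differed by -1.03 (q = 0.0931). Leaving out Pg replicate 3 kept the call (q = 0.0669), while q was 0.102, 0.150, 0.152 and 0.132 without Co replicates 1 to 4, and 0.117, 0.118 and 0.140 without Pg replicates 1, 2 and 4. With normexp background correction q was 0.0527, but the log2 fold change was -0.36 and thus under the fold limit. The second probe became a DEG there (-0.60, q = 0.0796) and in the deposited normalized table (-0.68, q = 0.0763), where the main probe was not analysed, and it was a DEG in 4 of 17 alternatives. *Pnpla3* was dim, and the Pg arrays had fewer probes well above background (31132 to 34063) than the Co arrays (34760 to 35831). Among 4432 probes with a mean log2 signal from 5.5 to 6.5, 2.01% were DEGs lower in Pg mice, compared to 1.3% of all probes, and the part of this in the change of *Pnpla3* was not tested. The signals most like that of the main *Pnpla3* probe over the 8 arrays were those of *Itsn1* (r = 0.985), *Tarsl2* (r = 0.984) and *Ube2d-ps* (r = 0.982), and the log2 differences of these were -0.44, -0.28 and -0.23.

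**Figure D4:**
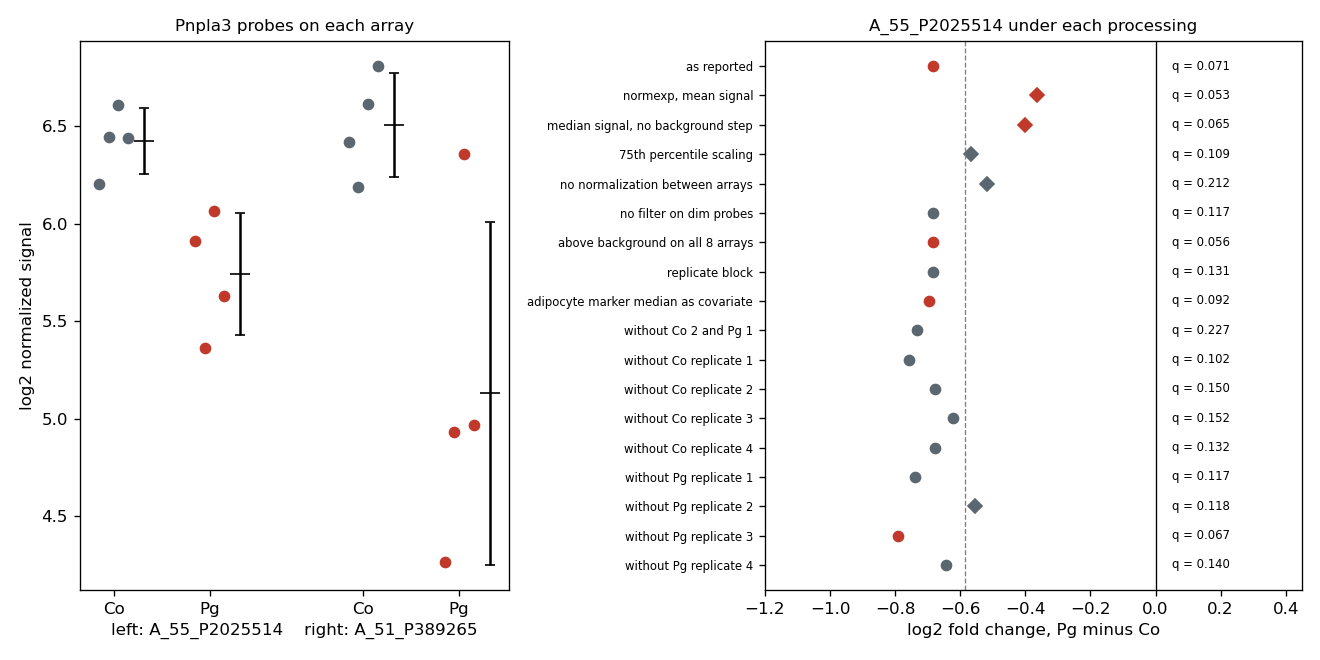
Left, log2 normalized signal of both *Pnpla3* probes on the 4 Co (grey) and 4 Pg (red) arrays, with the mean and SD in black. Right, the fitted log2 fold change of the main probe as reported and under 17 alternatives, without error bars and with its q, where red marks a q under 0.1, diamonds a change under 1.5-fold and the dashed line that limit. Every fold change is below 0, and q lies between 0.0527 and 0.227.

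The rest of the pathway was read from 3 lists of other genes, with 1 probe per gene. Of 57 genes tested in all, 2 had a q under 0.1 (3.51%, compared to 6.25% of 22454 genes) and none was a DEG in limma (1.19% of all genes). The fitted change was below 0 for 31 of the 57 and for 52.9% of all genes. An unadjusted p under 0.05 was found for 9 of the 57 and for 20.3% of all genes. Without any 1 of the Co replicates 2, 3 and 4 or the Pg replicates 1 and 4, none of the 57 had a q under 0.1. Of the other fits that left out an array, 2 had a q under 0.1 without Co replicate 1, 1 without Pg replicate 2 and 4 without Pg replicate 3.

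The list of signalling inputs holds receptors, adenylyl cyclases, protein kinases and phosphodiesterases that set the rate of lipolysis. Of its 22 genes taken here 18 were tested, and *Adrb1*, *Adcy3*, *Hcar1* and *Hcar2* were too dim. The fitted change was above 0 for 12 and below 0 for 6, with a median of 0.09 on the log2 scale. The limma q was under 0.1 for none of the 18, and the unadjusted p was under 0.05 for 4, against the shares of all genes given above. Of these 4, *Insr* and *Prkg1* were lower and *Gnas* and *Prkar1a* higher in Pg mice. *Insr*, the insulin receptor, had a difference of -0.25 (q = 0.148) and *Prkg1*, the cGMP-dependent kinase that natriuretic peptides act through, one of -0.20 (q = 0.146). *Gnas*, the stimulatory G protein, and *Prkar1a*, a regulatory subunit of protein kinase A, both named after their values were seen, had differences of 0.14 (q = 0.153) and 0.17 (q = 0.202). The Pg values lay above all Co values for *Gnas* and *Prkar1a* and below all of them for *Prkg1*, and the groups overlapped for *Insr*. *Pde4b* and *Pde3b*, which degrade cAMP, had differences of 0.24 and 0.19 with SEs of 0.28 and 0.11. *Adrb3*, the β receptor of adipocytes, named here after its values were seen, was above background on 5 of 8 arrays, with a difference of 0.42 and an SE of 0.56.

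All 21 genes of the list of droplet coat proteins and lipase regulators were tested, 7 with a fitted change above 0 and 14 below it, with a median of -0.04. None had a q under 0.1 in limma, and 1 an unadjusted p under 0.05. *G0s2*, the inhibitor of adipose triglyceride lipase, read 12.29, 11.84, 12.70 and 11.76 on the Co arrays and 11.01, 11.71, 12.00 and 11.53 on the Pg arrays. Pg replicate 3 lay among the Co arrays and the other 3 under them (-0.59, SE 0.27, q = 0.238). *Fabp5*, a fatty acid binding protein, had a difference of 0.37 with an SE of 0.13 (unadjusted p = 0.0230, q = 0.153). *Hsd17b11*, a dehydrogenase on droplets, and *Fitm2*, needed to form them, had differences of -0.21 and -0.13 with SEs of 0.26 and 0.09.

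Of 22 other hydrolases of glycerolipids 18 were tested, and *Ces3a*, *Lipg*, *Lipc* and *Aadac* were too dim. The fitted change was above 0 for 7 and below 0 for 11, with a median of -0.10, and 1 passed the test in each direction. *Abhd4*, which acts on N-acyl phospholipids, was higher in Pg mice at 13.35 ± 0.07 compared to 13.02 ± 0.08 in Co mice (log2 signal, SD, n = 4, difference 0.33, q = 0.0568). *Abhd12*, a lipase of lysophosphatidylserine and monoacylglycerol, was lower at 9.47 ± 0.10 compared to 9.82 ± 0.07 (difference -0.34, q = 0.0584). For both, no Pg value lay within the Co range. *Ces1d*, a carboxylesterase that hydrolyses triacylglycerol, had a difference of -0.37 with an SE of 0.22, and *Ddhd1*, a phospholipase of phosphatidic acid, one of -0.31 with an SE of 0.10 (q = 0.138).

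**Figure D5:**
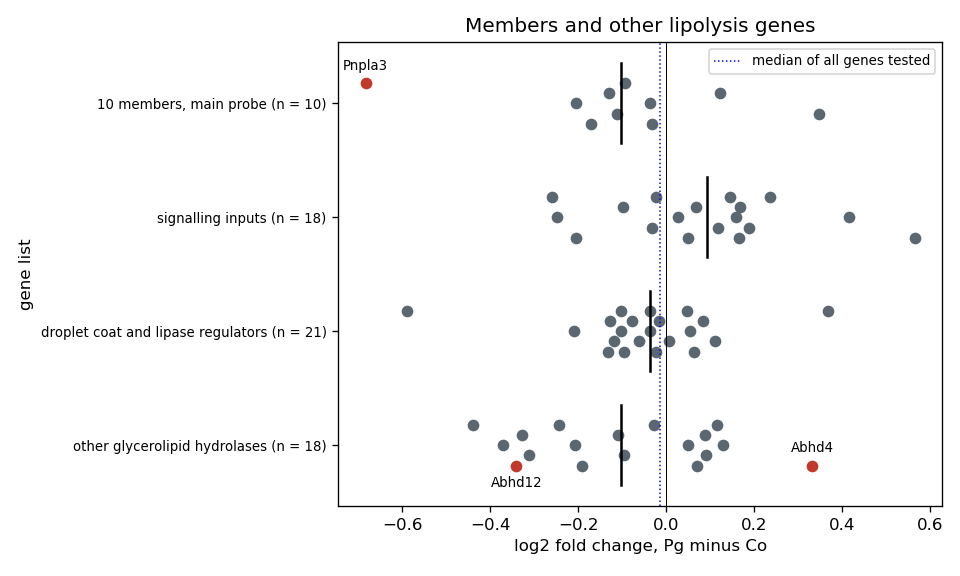
Each dot is the fitted log2 fold change of 1 gene, for the main probes of the 10 members and for the tested genes of 3 pathway lists. Black bars are the medians, the blue dotted line is the median of all 22454 genes tested (-0.01), and red dots with names have a q under 0.1. The named genes lie on both sides of 0, 2 below it and 1 above.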

How the data were processed

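Cy3 intensity was measured on 8 one-color arrays, 4 per group. The authors deposited the output of Agilent Feature Extraction 11.0.1.1, with background-subtracted, detrended processed intensities and no normalization between arrays. Of 59305 non-control spots, population outliers (90 to 150 per array) were left out, and spots of a probe were averaged. Probe signals then went through quantile normalization across arrays, and log2 was taken after values under 1 had been set to 1. The filter kept a probe if Feature Extraction marked it well above background on 4 or more arrays. The Pg against Co contrast was fitted on all kept probes with limma 3.58.1 (lmFit, eBayes, two-sided) in R 4.3.3, with files read by the package data.table (version 1.17.8), and the fit was tested on simulated data. The authors also deposited a normalized log2 table, used as an alternative, whose columns of their own comparison were not used. The members and lists were chosen with earlier results of these data known. Genes named are the 10 members, list genes with a q under 0.1 or among the 4 largest changes above background on all 8 arrays, 7 markers (*Ucp1*, *Cidea*, *Adipoq*, *Cidec*, *Fabp4*, *Acta1* and *Ckm*), and the 3 most alike genes of *Plin1*, *Plin2* and *Pnpla3*. Other markers and list genes were named after their values were seen. Alternatives were other signals, normalizations and filters, a replicate block, arrays left out and gene means. The number of arrays limits the precision. Of the signalling list 1 gene, and 1 probe sequence, are not reported here.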

Additional observations from a re-analysis of the deposited data

Results flagged for a closer look

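Of 40 groups of 4 arrays (20 probes in 2 groups), 2 had 1 array standing apart from the other 3, and chance flags about 1 in 20 groups. In the second *Plin5* probe (A_51_P262757), Co replicate 1 read 15.57 and the other Co arrays 15.13 to 15.20 (log2 signal). In the *Lipe* probe that was not tested (A_51_P174133), Co replicate 3 read 4.47 and the other Co arrays, none well above background, 2.14 to 2.17.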

How the results depend on the processing

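Of the 18 member probes, the count of DEGs (1 as reported) was 0 with scaling to the 75th percentile, without normalization between arrays, without a filter on dim probes, with the replicate block, and without Co replicate 2 and Pg replicate 1 together, the array of each group with the most adipocyte marker signal. The count with a q under 0.1 was also 0 in these settings, 3 with normexp and 2 with the median signal. Leaving out 1 array at a time gave 0 to 2 for both counts. The count of pathway genes with a q under 0.1 (2 as reported) was 1 in the authors' table, 0 without normalization, with the replicate block and without those 2 arrays together, and 0 to 4 with 1 array left out. The adipocyte marker median, which is the *Retn* signal, kept the *Pnpla3* call as a covariate (q = 0.0918). This fit and the one without those 2 arrays were chosen after seeing the data. Over all probes, DEGs numbered 546 as reported (106 higher, 440 lower), 94 with normexp (66 and 28), 108 with the median signal (75 and 33), 283 after 75th percentile scaling (137 and 146), 27 without normalization (20 and 7), 372 without the filter, 318 with probes above background on all 8 arrays, 106 in the authors' table (60 and 46), 0 with the replicate block, 1 without those 2 arrays, and 3 to 697 with 1 array left out. Same-numbered arrays of the groups lay in the same column of the slide. Their deviations from the group means were weakly related (r from -0.07 to 0.18), and the numbers were not taken as pairs. With the replicate block the q of the main *Pnpla3* probe was 0.131, no probe on the array had a q under 0.1, and 3 member probes had an unadjusted p under 0.05. Replicates 1 and 4 correlated best with their own number and the others did not.

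The Pg minus Co difference of the brown adipocyte list was -0.05 as reported and 0.034 without normalization, and that of the muscle list -0.0062 and 0.0013 with normexp. With 1 array left out, the differences lay between -0.12 and 0.045 for brown adipocyte, -0.22 and 0.36 for adipocyte, -0.046 and 0.020 for muscle and 0.039 and 0.53 for macrophage markers. With 1 array left out, the log2 fold change of the main *Plin3* probe lay between -0.11 and 0.052 and that of the main *Plin5* probe between -0.065 and 0.016. The main probes of *Plin1*, *Plin2*, *Plin4*, *Lipe*, *Pnpla2*, *Mgll* and *Abhd5* kept their sign and a q of at least 0.1 in all 18 alternatives, and those of *Plin3* and *Plin5* kept such a q. The size of the change moved, from -0.18 to -0.005 for *Lipe* and from -0.15 to -0.020 for *Pnpla2* over these alternatives. The causes of these shifts were not tested. Probes that are dim, such as those of *Pnpla3* and the 2 untested ones, have little signal over background, which limits what can be read from them.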
